A study of Mus musculus with 16 samples.

Results

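Glycolysis and glycogen turnover in skeletal muscle were described through 37 genes, which cover the enzymes of glycolysis down to lactate, glycogen synthesis and breakdown, the glycerol phosphate shuttle, the fructose bisphosphate bypass and insulin-responsive glucose transport. The genes were chosen by name as a pathway, but with earlier results of these data known, so member counts set beside those of all genes are descriptive. Each was taken as the row of the count table whose Ensembl identifier carries that symbol. All 37 were found among the 30037 genes of the table, and all 37 passed the filter on low counts, together with 15649 genes in all. Aldoa matched more than 1 identifier, and the one with the largest summed count was kept. Of the 37, 14 are the isoforms that predominate in muscle, 10 are isoforms known mainly from other tissues, and 13 encode steps that were not divided by isoform.

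Glycolysis splits glucose into pyruvate and yields ATP without oxygen, and fast-twitch fibres rely on it for short bursts of work. Their fuel is largely glycogen, a branched glucose store from which glycogen phosphorylase releases glucose 1-phosphate once phosphorylase kinase, a complex of alpha, beta, gamma and calmodulin subunits, has activated it. Many steps are run by paired isoforms, of which 1 is typical of adult muscle, and the cytosolic NADH made on the way is handed to mitochondria by the glycerol phosphate shuttle or turned over by lactate dehydrogenase.

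RNA was taken from the tibialis anterior, a mostly fast muscle of the lower leg, of male C57BL/6N mice aged 7 weeks, giving 16 libraries. The groups were Dnm2SL/+ mice given ASO1 (n = 4), Dnm2SL/+ mice given ASO Control (n = 6), wild-type (WT) mice given ASO1 (n = 2) and WT mice given ASO Control (n = 4). Dnm2SL/+ mice carry the SL allele on 1 copy of Dnm2, the gene of the membrane-severing GTPase dynamin 2, and serve as a model of dominant centronuclear myopathy, in which the nuclei of muscle fibres lie centrally. ASO1 is an antisense oligonucleotide directed at Dnm2, and no mouse went without an oligonucleotide, so every level below is that of an injected animal. The labels give neither the dose nor whether libraries come from separate litters or extractions, so p-values measure the spread between these libraries only.

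Each library held 30148163 to 33667052 counts. Levels are in CPM, counts divided by library size after TMM scaling, which sets the typical gene equal between libraries. TMM factors were 0.964 to 1.02 in Dnm2SL/+ ASO1, 1.05 to 1.12 in Dnm2SL/+ ASO Control, 0.884 to 0.923 in WT ASO1 and 0.899 to 0.957 in WT ASO Control, so the factors of the Dnm2SL/+ and WT groups did not overlap. The targeted gene Dnm2 stood at 26.6 to 35.2 CPM in Dnm2SL/+ ASO1, 35.1 to 65.1 CPM in Dnm2SL/+ ASO Control, 22.9 to 24.98 CPM in WT ASO1 and 45.4 to 57.1 CPM in WT ASO Control. The library labelled Dnm2SL/+ ASO Control 6, at 35.1 CPM, lay within the range of the ASO1-treated mutants and against its label, so the counts of called members, of members whose groups did not overlap, by function and isoform, of isoform ratios and of the related lists are also given without it. Counts on other scalings and the levels below include it. The tissue label fitted its markers, since 10 fast-fibre genes summed to 119574 to 134388 CPM in Dnm2SL/+ ASO1, 100590.0 to 117802 CPM in Dnm2SL/+ ASO Control, 144261 to 176752 CPM in WT ASO1 and 142003 to 161389 CPM in WT ASO Control, and 10 slow-fibre genes to 1595 to 3744 CPM in Dnm2SL/+ ASO1, 611 to 2065 CPM in Dnm2SL/+ ASO Control, 701 to 1497 CPM in WT ASO1 and 1099 to 3144 CPM in WT ASO Control.

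Changes are log2 fold changes (log2FC) ± standard error from edgeR's quasi-likelihood test over all 15649 genes, and a gene was called a differentially expressed gene (DEG) at an adjusted p under 0.05. The test is two-sided, and the adjustment is that of Benjamini and Hochberg. The genotype, ASO1 and treated-mutant comparisons share control libraries, so their values are set side by side only.

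The levels of some members are uncertain because other annotated genes, pseudogenes among them, share stretches of identical sequence. Windows of 50 bases found elsewhere in the annotated transcripts made up 82.5% of the main transcript of Gapdh, 72.2% of Eno1, 68.0% of Pgk1 and 41.5% of Pgam1. The share was 30.5% for Pkm, 27.0% for Ldhb, 19.6% for Gpi1, 17.1% for Ldha and 13.9% for Aldoa. It was 7.5% for Tpi1, 4.7% for Phkg1 and at most 1.3% for every other member. Reads from such windows could be split or dropped in counting, so the low values of Gapdh, Pgk1 and Eno1 below may not cover all of their RNA. Pfkm and Pkm share exonic sequence with another annotated gene on the same strand.

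The promoters of 4 genes are shown, those of muscle glycogen phosphorylase (Pygm) and of the 3 phosphorylase kinase subunits measured here. They were chosen because all 4 genes were lower in the mutant and higher with ASO1, as described below. Each promoter is the 250 bases before the RefSeq start in GRCm38.p6, read 5′ to 3′ on the gene's own strand. Capitals mark matches to CAGCTG, an E-box of the kind bound by myogenic factors, or to ACGTG, the core of the hypoxia response element, each searched on both strands.
Pygm, chr19:6384158-6384407, plus strand: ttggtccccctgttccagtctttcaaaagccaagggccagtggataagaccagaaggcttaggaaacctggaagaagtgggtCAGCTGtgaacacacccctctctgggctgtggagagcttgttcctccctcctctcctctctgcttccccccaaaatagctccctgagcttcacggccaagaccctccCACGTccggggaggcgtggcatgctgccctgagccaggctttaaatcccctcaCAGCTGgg
Phka1, chrX:102644247-102644496, minus strand: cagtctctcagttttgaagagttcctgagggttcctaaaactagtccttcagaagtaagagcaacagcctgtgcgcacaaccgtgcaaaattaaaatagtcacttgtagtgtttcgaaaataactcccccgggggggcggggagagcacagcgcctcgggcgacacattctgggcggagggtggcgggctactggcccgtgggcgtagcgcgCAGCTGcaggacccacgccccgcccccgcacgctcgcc
Phkb, chr8:85840738-85840987, plus strand: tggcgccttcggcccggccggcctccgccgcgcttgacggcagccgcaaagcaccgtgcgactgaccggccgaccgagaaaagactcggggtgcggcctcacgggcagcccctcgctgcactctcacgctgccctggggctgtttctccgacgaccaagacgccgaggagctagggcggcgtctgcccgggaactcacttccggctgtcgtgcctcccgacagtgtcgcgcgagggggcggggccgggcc
Phkg1, chr5:129879089-129879338, minus strand: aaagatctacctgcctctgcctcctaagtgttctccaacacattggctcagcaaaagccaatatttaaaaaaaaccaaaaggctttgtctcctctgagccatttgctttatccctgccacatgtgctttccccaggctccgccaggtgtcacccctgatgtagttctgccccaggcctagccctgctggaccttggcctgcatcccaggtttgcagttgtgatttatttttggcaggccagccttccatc

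The Pygm window held 2 E-boxes and 1 hypoxia core, the Phka1 window held 1 E-box, and the Phkb and Phkg1 windows held neither. RefSeq promoters matched 35 of the 37 members, with 52 starts among them. The E-box stood in 21.2% of these 52 windows, belonging to 11 members, and in 13% of all 32851 promoters of the same length. The hypoxia core stood in 36.5% of member windows, belonging to 16 members, and in 16.6% of all promoters. The MEF2 consensus was found in 5.77% of member windows (Pgam2, Ppp1r3a and Pfkfb1) and in 2.92% of all promoters. TCAGGTT, a MEF3 site, was found in the Pfkl window only, against 3.49% of all promoters, and the estrogen-related receptor element TCAAGGTCA in none, against 0.387% of all promoters. Such a match describes letters in a window and no bound site.

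The comparison of Dnm2SL/+ ASO Control with WT ASO Control asks what the mutation changed while Dnm2 was not lowered. Most of the pathway was lower in the mutant, with differences of about 1 log2 unit in the glycerol phosphate shuttle enzymes Gpd2 (log2FC -1.19) and Gpd1 (-1.06), the phosphorylase kinase subunits Phka1 (-1.14) and Phkb (-0.93), and muscle glycogen phosphorylase Pygm (-0.89). In all, 21 of 37 members were called lower, against 16.4% of all genes tested, and 1, the hexokinase gene Hk1, was called higher, against 15.7%. The median log2FC was -0.303 over the members and 0.00226 over all genes. In 17 members every Dnm2SL/+ ASO Control library lay below every WT ASO Control library, which held for 12.0% of all genes, and in 1 member every library lay above, which held for 11.3%. Without the library labelled Dnm2SL/+ ASO Control 6, 22 members were called lower and 1 higher, and in 21 members every mutant library lay below every WT ASO Control library. Leaving out any 1 library gave 2085 to 2598 of all genes called lower and 1999 to 2531 called higher. The share of all genes without overlap was not taken for the smaller set, and leaving out a library can only add to such counts. In bulk muscle, fewer cells or fibres of a type and less RNA per cell cannot be told apart. In the same comparison 9 of 10 fast-fibre markers were lower and 6 of 10 slow-fibre markers were higher. The summed level of the slow-fibre list nonetheless overlapped, at 611 to 2065 CPM in Dnm2SL/+ ASO Control and 1099 to 3144 CPM in WT ASO Control. That sum includes Myh2, the myosin of type 2A fibres rather than a slow-fibre gene, and 0 of the list were called lower. The part of fibre type in the result was not tested.

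By function, 9 of 18 genes of the glycolytic steps were lower and 1 was higher, 7 of 12 glycogen genes were lower, and 5 of 7 genes of the shuttle, the bypass and transport were lower. The median log2FC was -0.26 for the glycolytic steps, -0.47 for glycogen and -0.72 for the shuttle, bypass and transport genes. By isoform, 12 of 14 muscle isoforms and 9 of 13 undivided genes were lower, while of 10 isoforms of other tissues none was lower and 1 was higher. Leaving out the Dnm2SL/+ ASO Control library labelled 6 changed these counts by 1 gene, Ldhb, which was then lower (10 of the 18 glycolytic genes and 1 of the 10 isoforms of other tissues).

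These directions are relative to the typical gene, and scaling moved some of them. When libraries were scaled by their total counts alone, the median gene itself rose by 0.229 on the log2 scale in this comparison, and 929 genes were called lower and 5662 higher, where TMM gave 2565 and 2456. Under that scaling 10 members were called lower, all among the 21 above (Gpd1, Gpd2, Fbp2, Pygm, Phka1, Phkb, Phkg1, Ppp1r3a, Pfkfb1 and Slc2a4), and 4 were called higher, namely Hk1 (log2FC 0.92), Pfkp (0.55), Gbe1 (0.45) and Gpd1l (0.21). None of the 18 genes of the glycolytic steps was lower on total counts, whereas 5 of 12 glycogen genes and 5 of 7 shuttle, bypass and transport genes still were. In this comparison the counts of called members from RLE, upper-quartile and trimmed scalings were equal to those from TMM. As a share of all counts, the 37 members summed to 4.74% ± 0.175 in Dnm2SL/+ ASO1 (SD, n = 4), 4.45% ± 0.280 in Dnm2SL/+ ASO Control (n = 6), 5.53% ± 0.529 in WT ASO1 (n = 2) and 5.11% ± 0.128 in WT ASO Control (n = 4).

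**Figure D1:**
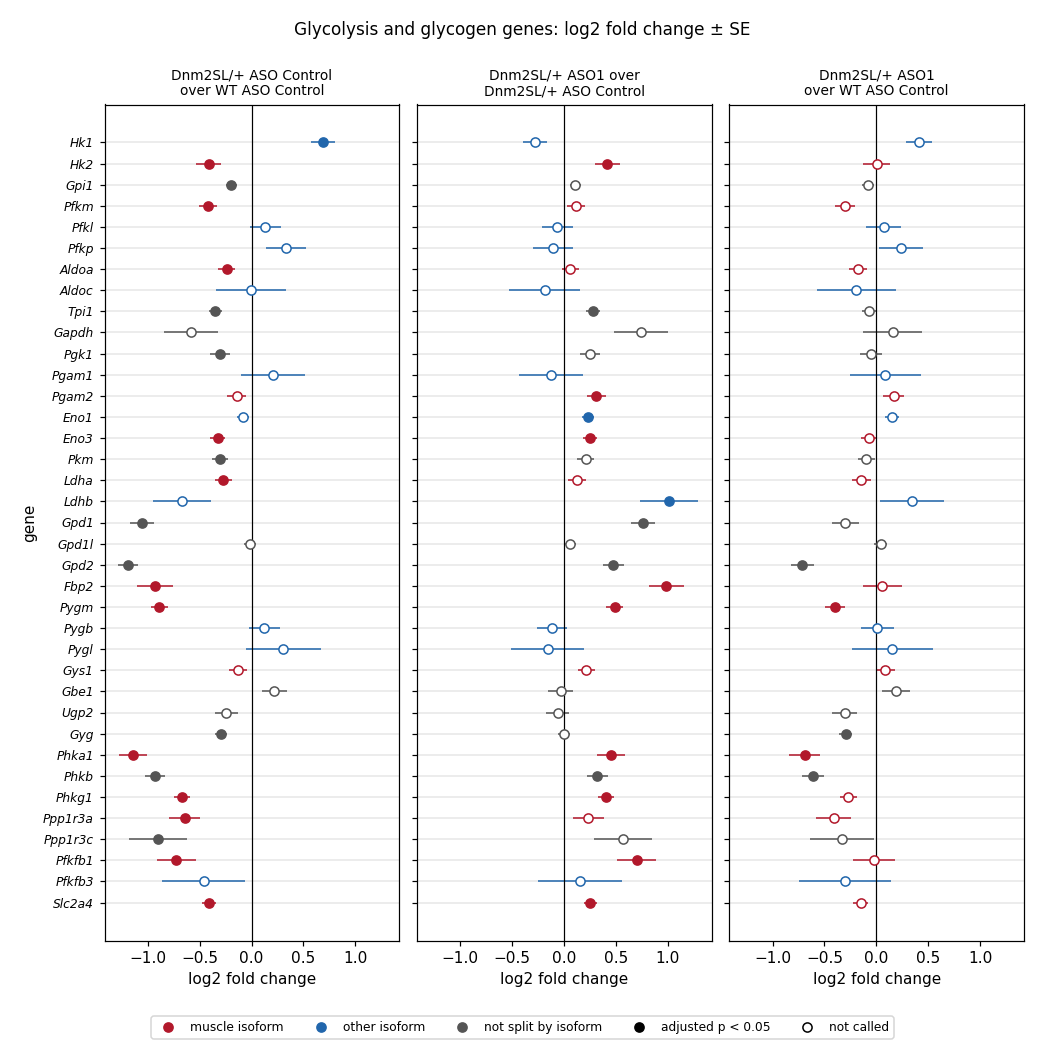
Log2 fold change ± SE of the 37 members (rows) in 3 comparisons (panels), with filled points for an adjusted p under 0.05 and colour for the isoform class. In the left panel 21 filled points lie left of 0 and 1, Hk1, lies right of it. In the middle panel all 15 filled points lie right of 0, and in the right panel 5 filled points lie left of 0.

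Genes of glycogen breakdown in muscle were lower in the mutant. Pygm encodes muscle glycogen phosphorylase, the gene lost in McArdle disease, and is annotated as ENSMUSG00000032648, chr19:6384399-6398459, plus strand (coordinates are those of GRCm38). Pygm had 6442, 5928, 7046 and 6638 CPM in Dnm2SL/+ ASO1, 4114 to 5112 (median 4745) CPM in Dnm2SL/+ ASO Control, 9912 and 7816 CPM in WT ASO1, and 7959, 8493, 8838 and 9085 CPM in WT ASO Control. No library of either mutant group reached the lowest WT ASO Control library, and the ASO1-treated mutants all lay above the mutants given ASO Control. Pygm was lower by genotype (log2FC -0.89 ± 0.084, edgeR adjusted p = 3.0e-06), higher with ASO1 in the mutant (log2FC 0.49 ± 0.084, edgeR adjusted p = 0.0016) and still lower in treated mutants than in WT ASO Control (log2FC -0.40 ± 0.093, edgeR adjusted p = 0.026). Brain phosphorylase Pygb had 7.43, 7.12, 9.15 and 10.4 CPM in Dnm2SL/+ ASO1, 7.92 to 10.5 (median 9.38) CPM in Dnm2SL/+ ASO Control, 5.59 and 8.12 CPM in WT ASO1, and 10.3, 8.86, 8.05 and 6.60 CPM in WT ASO Control. Liver phosphorylase Pygl had 1.25, 1.52, 2.19 and 2.31 CPM in Dnm2SL/+ ASO1, 1.07 to 3.52 (median 2.00) CPM in Dnm2SL/+ ASO Control, 0.530 and 1.55 CPM in WT ASO1, and 1.70, 2.52, 1.31 and 0.990 CPM in WT ASO Control. Both were scarce and their groups overlapped, with genotype log2FC 0.12 for Pygb (edgeR adjusted p = 0.56) and 0.31 for Pygl (edgeR adjusted p = 0.55). Per kilobase of transcript in WT ASO Control, Pygm stood at 2990.1 ± 169.7 CPM, Pygb at 2.17 ± 0.400 CPM and Pygl at 0.576 ± 0.234 CPM (SD, n = 4).

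The 3 phosphorylase kinase genes measured were all lower in the mutant. Phka1, the muscle alpha subunit (ENSMUSG00000034055, chrX:102513975-102644246, minus strand), had 741, 530.1, 891 and 684 CPM in Dnm2SL/+ ASO1, 429.5 to 607 (median 516) CPM in Dnm2SL/+ ASO Control, 1241 and 989 CPM in WT ASO1, and 1037, 961, 1349.7 and 1238 CPM in WT ASO Control. Its mutant groups overlapped each other and both lay below WT ASO Control. Phka1 was lower by genotype (log2FC -1.14 ± 0.13, edgeR adjusted p = 1.6e-05), higher with ASO1 (log2FC 0.45 ± 0.13, edgeR adjusted p = 0.034) and lower in treated mutants than in WT ASO Control (log2FC -0.69 ± 0.15, edgeR adjusted p = 0.020). The beta subunit gene Phkb (ENSMUSG00000036879, chr8:85840959-86061376, plus strand) had 318, 289.5, 414 and 326 CPM in Dnm2SL/+ ASO1, 244 to 297 (median 270.0) CPM in Dnm2SL/+ ASO Control, 579 and 469.9 CPM in WT ASO1, and 475, 476, 571 and 537 CPM in WT ASO Control. As for Phka1, the mutant groups lay wholly below both WT groups. Phkb was lower by genotype (log2FC -0.93 ± 0.097, edgeR adjusted p = 6.0e-06), higher with ASO1 (log2FC 0.32 ± 0.098, edgeR adjusted p = 0.037) and lower in treated mutants (log2FC -0.61 ± 0.11, edgeR adjusted p = 0.0085). Phkg1, the muscle catalytic gamma subunit (ENSMUSG00000025537, chr5:129863421-129898549, minus strand), had 500.5, 479, 545 and 496 CPM in Dnm2SL/+ ASO1, 345 to 423 (median 385) CPM in Dnm2SL/+ ASO Control, 690.2 and 560.1 CPM in WT ASO1, and 535, 639.5, 652 and 609 CPM in WT ASO Control. Treated mutants lay above all mutants given ASO Control, and only their highest library reached into the WT ASO Control range. Phkg1 was lower by genotype (log2FC -0.67 ± 0.077, edgeR adjusted p = 1.3e-05) and higher with ASO1 (log2FC 0.40 ± 0.077, edgeR adjusted p = 0.0029), and in treated mutants against WT ASO Control its log2FC was -0.27 (edgeR adjusted p = 0.082).

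Of the 4 genes that build glycogen, 1 was lower by genotype. Gyg, glycogenin, which primes each new glycogen particle, had 337, 302, 338 and 275 CPM in Dnm2SL/+ ASO1, 301 to 322 (median 316) CPM in Dnm2SL/+ ASO Control, 384 and 370.1 CPM in WT ASO1, and 379.9, 363, 401 and 391 CPM in WT ASO Control. All mutant libraries, treated or not, lay below all WT libraries. Gyg was lower by genotype (log2FC -0.29 ± 0.057, edgeR adjusted p = 0.0012) and in treated mutants (log2FC -0.29 ± 0.063, edgeR adjusted p = 0.020), and its log2FC with ASO1 in the mutant was -0.0032 ± 0.058. Ugp2, which makes UDP-glucose, had 1228, 1051, 1134 and 829.1 CPM in Dnm2SL/+ ASO1, 906 to 1299.5 (median 1125) CPM in Dnm2SL/+ ASO Control, 1209.6 and 1338 CPM in WT ASO1, and 1176, 1204, 1471 and 1389.9 CPM in WT ASO Control. Gbe1, the branching enzyme, had 203, 181, 149 and 141 CPM in Dnm2SL/+ ASO1, 155 to 181 (median 176) CPM in Dnm2SL/+ ASO Control, 118 and 157 CPM in WT ASO1, and 137, 123, 143 and 188 CPM in WT ASO Control. The groups of both genes overlapped, and neither passed the test by genotype (Ugp2 log2FC -0.24, edgeR adjusted p = 0.11, and Gbe1 log2FC 0.22, edgeR adjusted p = 0.19). Muscle glycogen synthase Gys1 ranged over 709 to 1002 CPM across all 16 libraries and was called in no comparison (genotype log2FC -0.13, edgeR adjusted p = 0.25).

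Subunits that bring protein phosphatase 1 to glycogen, where it turns synthase on and phosphorylase off, were lower by genotype. Ppp1r3a, the muscle glycogen-targeting subunit, had 476, 320.2, 391 and 264 CPM in Dnm2SL/+ ASO1, 272 to 348 (median 309.8) CPM in Dnm2SL/+ ASO Control, 411 and 435 CPM in WT ASO1, and 372, 446, 633 and 480.4 CPM in WT ASO Control. Mutants given ASO Control lay below every WT ASO Control library, and the treated mutants spanned both ranges. Ppp1r3a was lower by genotype (log2FC -0.64 ± 0.15, edgeR adjusted p = 0.0038), with a log2FC of 0.23 with ASO1 (edgeR adjusted p = 0.33). Ppp1r3c, also called PTG, had 862, 1019.7, 1968 and 1516 CPM in Dnm2SL/+ ASO1, 449.6 to 1416 (median 863) CPM in Dnm2SL/+ ASO Control, 1934 and 2374 CPM in WT ASO1, and 1577, 1393, 1599.9 and 2178 CPM in WT ASO Control. It varied widely between mutant libraries and overlapped WT, and was lower by genotype (log2FC -0.90 ± 0.28, edgeR adjusted p = 0.022), with a log2FC of 0.57 with ASO1 (edgeR adjusted p = 0.19).

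**Figure D2:**
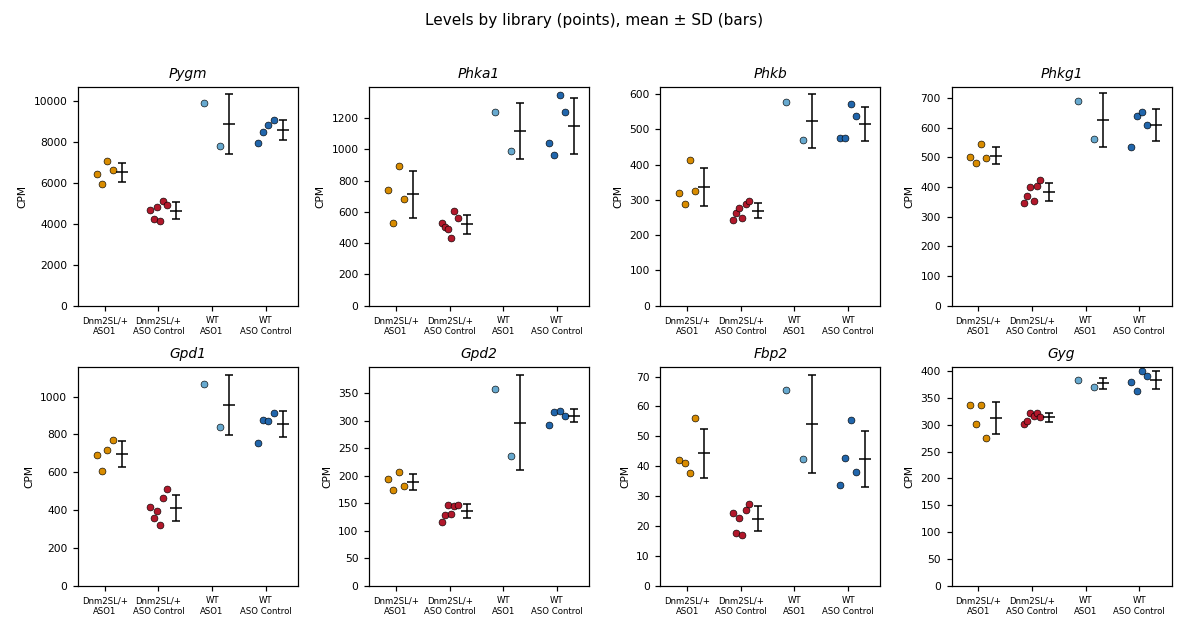
CPM (vertical axis, starting at 0) of 8 members by library (points) in the 4 groups, with mean ± SD as bars (n = 4, 6, 2 and 4 from left to right). Pygm, Gpd1, Gpd2, Fbp2 and Phkg1 show treated mutants wholly above mutants given ASO Control, and Gyg shows both mutant groups at the same level, below WT.

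The glycerol phosphate shuttle carries electrons of cytosolic NADH to the respiratory chain. Gpd2, its mitochondrial enzyme (ENSMUSG00000026827, chr2:57237635-57370719, plus strand), had 193, 173, 207 and 180.4 CPM in Dnm2SL/+ ASO1, 116 to 147 (median 137) CPM in Dnm2SL/+ ASO Control, 358 and 235 CPM in WT ASO1, and 292, 316, 317 and 309 CPM in WT ASO Control. Treated mutants lay above every mutant given ASO Control, and WT libraries lay above both. Gpd2 was lower by genotype (log2FC -1.19 ± 0.098, edgeR adjusted p = 1.1e-06), higher with ASO1 (log2FC 0.48 ± 0.099, edgeR adjusted p = 0.0046) and lower in treated mutants than in WT ASO Control (log2FC -0.71 ± 0.11, edgeR adjusted p = 0.0047). Gpd1, the cytosolic enzyme (ENSMUSG00000023019, chr15:99717515-99725005, plus strand), had 691, 605, 715 and 769.8 CPM in Dnm2SL/+ ASO1, 323 to 513 (median 406) CPM in Dnm2SL/+ ASO Control, 1069 and 842 CPM in WT ASO1, and 757, 878, 871 and 916 CPM in WT ASO Control. Treated mutants lay wholly above mutants given ASO Control and overlapped WT ASO Control in their highest library. Gpd1 was lower by genotype (log2FC -1.06 ± 0.12, edgeR adjusted p = 8.7e-06) and higher with ASO1 (log2FC 0.76 ± 0.12, edgeR adjusted p = 7.8e-04), and for treated mutants against WT ASO Control its log2FC was -0.30 (edgeR adjusted p = 0.19). The related Gpd1l had 42.1, 45.7, 36.8 and 42.2 CPM in Dnm2SL/+ ASO1, 39.2 to 40.6 (median 40.0) CPM in Dnm2SL/+ ASO Control, 41.2 and 36.4 CPM in WT ASO1, and 38.0, 40.9, 41.1 and 41.9 CPM in WT ASO Control. Its groups overlapped throughout (genotype log2FC -0.018, edgeR adjusted p = 0.84), although scaling by total counts turned this to 0.21 (edgeR adjusted p = 0.0077).

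Fructose 1,6-bisphosphate is removed by the muscle bisphosphatase Fbp2, and fructose 2,6-bisphosphate, an activator of phosphofructokinase, is made and degraded by the bifunctional Pfkfb enzymes. Fbp2 (ENSMUSG00000021456, chr13:62836877-62858422, minus strand) had 42.0, 41.1, 37.8 and 56.0 CPM in Dnm2SL/+ ASO1, 16.8 to 27.4 (median 23.5) CPM in Dnm2SL/+ ASO Control, 65.6 and 42.4 CPM in WT ASO1, and 33.8, 42.6, 55.5 and 38.2 CPM in WT ASO Control. No mutant library given ASO Control reached any other group, whereas treated mutants spread over the WT range. Fbp2 was lower by genotype (log2FC -0.93 ± 0.17, edgeR adjusted p = 7.3e-04) and higher with ASO1 (log2FC 0.99 ± 0.17, edgeR adjusted p = 0.0016), with a log2FC of 0.057 in treated mutants against WT ASO Control (edgeR adjusted p = 0.89). Pfkfb1 had 123, 72.7, 92.6 and 98.7 CPM in Dnm2SL/+ ASO1, 44.9 to 85.4 (median 55.7) CPM in Dnm2SL/+ ASO Control, 77.6 and 99.6 CPM in WT ASO1, and 83.3, 83.3, 114 and 113 CPM in WT ASO Control. Its groups overlapped, and it was lower by genotype (log2FC -0.72 ± 0.19, edgeR adjusted p = 0.0074) and higher with ASO1 (log2FC 0.70 ± 0.19, edgeR adjusted p = 0.019). The inducible Pfkfb3 had 39.9, 251, 82.9 and 116 CPM in Dnm2SL/+ ASO1, 68.4 to 187 (median 103) CPM in Dnm2SL/+ ASO Control, 151 and 84.2 CPM in WT ASO1, and 135, 193, 173 and 103 CPM in WT ASO Control. It was widely spread in both mutant groups and was called in no comparison (genotype log2FC -0.46 ± 0.40).

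Slc2a4 encodes GLUT4, the glucose transporter that insulin and contraction bring to the fibre surface (ENSMUSG00000018566, chr11:69942539-69948188, minus strand). It had 705, 626, 659 and 595 CPM in Dnm2SL/+ ASO1, 483 to 587 (median 542) CPM in Dnm2SL/+ ASO Control, 664 and 685 CPM in WT ASO1, and 661, 691, 765 and 754 CPM in WT ASO Control. Mutants given ASO Control lay below every library of the other groups. Slc2a4 was lower by genotype (log2FC -0.41 ± 0.066, edgeR adjusted p = 2.5e-04) and higher with ASO1 (log2FC 0.26 ± 0.066, edgeR adjusted p = 0.017).

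Of the glycolytic steps, hexokinase, which traps glucose in the cell, showed its isoforms on opposite sides. Hk2, the muscle form, had 701, 556, 759 and 534 CPM in Dnm2SL/+ ASO1, 426 to 533 (median 481) CPM in Dnm2SL/+ ASO Control, 532 and 599.8 CPM in WT ASO1, and 562, 515, 752 and 712 CPM in WT ASO Control. Treated mutants lay above all mutants given ASO Control, and the mutants given ASO Control overlapped WT ASO Control in part. Hk2 was lower by genotype (log2FC -0.41 ± 0.12, edgeR adjusted p = 0.014) and higher with ASO1 (log2FC 0.42 ± 0.12, edgeR adjusted p = 0.027). Hk1, the form of most other tissues, had 13.5, 16.7, 19.7 and 19.4 CPM in Dnm2SL/+ ASO1, 18.8 to 24.0 (median 20.7) CPM in Dnm2SL/+ ASO Control, 13.6 and 14.9 CPM in WT ASO1, and 15.4, 10.8, 13.1 and 12.8 CPM in WT ASO Control. Every mutant library given ASO Control lay above every WT ASO Control library. Hk1 was the 1 member higher by genotype (log2FC 0.69 ± 0.11, edgeR adjusted p = 3.1e-04), with a log2FC of -0.28 with ASO1 (edgeR adjusted p = 0.11), and -0.41 on total counts (edgeR adjusted p = 0.027).

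Phosphofructokinase commits sugar to glycolysis. Its muscle form Pfkm had 5356, 5042, 5969.6 and 4721 CPM in Dnm2SL/+ ASO1, 4229 to 5332 (median 4883) CPM in Dnm2SL/+ ASO Control, 7165 and 6232 CPM in WT ASO1, and 5979.8, 6268, 6919 and 6802 CPM in WT ASO Control. Both mutant groups lay below WT ASO Control and overlapped each other. Pfkm was lower by genotype (log2FC -0.42 ± 0.085, edgeR adjusted p = 0.0015), with log2FC 0.12 with ASO1 (edgeR adjusted p = 0.40). The liver form Pfkl had 12.5, 9.63, 12.7 and 14.9 CPM in Dnm2SL/+ ASO1, 10.5 to 14.7 (median 13.4) CPM in Dnm2SL/+ ASO Control, 9.51 and 16.5 CPM in WT ASO1, and 11.3, 11.2, 10.6 and 14.3 CPM in WT ASO Control. The platelet form Pfkp had 5.98, 11.5, 12.6 and 11.8 CPM in Dnm2SL/+ ASO1, 9.75 to 12.8 (median 11.2) CPM in Dnm2SL/+ ASO Control, 9.23 and 9.81 CPM in WT ASO1, and 12.4, 9.30, 7.19 and 6.67 CPM in WT ASO Control. Neither of these scarce forms passed the test by genotype (Pfkl log2FC 0.13, edgeR adjusted p = 0.54, and Pfkp log2FC 0.33, edgeR adjusted p = 0.21).

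Gpi1, which turns glucose 6-phosphate into fructose 6-phosphate, had 735, 738, 741 and 744 CPM in Dnm2SL/+ ASO1, 651 to 726 (median 678) CPM in Dnm2SL/+ ASO Control, 892 and 778 CPM in WT ASO1, and 746, 777, 790.5 and 821 CPM in WT ASO Control. Its groups were narrow except WT ASO1. Gpi1 was lower by genotype (log2FC -0.19 ± 0.051, edgeR adjusted p = 0.0085), though on total counts its log2FC was 0.034 (edgeR adjusted p = 0.56). Aldoa, the muscle aldolase and the most abundant member per kilobase (9078 ± 447 CPM in WT ASO Control), had 12317, 11718, 12049.7 and 12430.0 CPM in Dnm2SL/+ ASO1, 10358 to 12921 (median 11745) CPM in Dnm2SL/+ ASO Control, 18638 and 14336 CPM in WT ASO1, and 13430.0, 13202, 13525 and 14710.1 CPM in WT ASO Control. Both mutant groups lay below WT ASO Control and overlapped each other, and Aldoa was lower by genotype (log2FC -0.24 ± 0.081, edgeR adjusted p = 0.034). The brain aldolase Aldoc had 0.395, 0.330, 0.392 and 0.697 CPM in Dnm2SL/+ ASO1, 0.255 to 0.677 (median 0.552) CPM in Dnm2SL/+ ASO Control, 0.460 and 0.862 CPM in WT ASO1, and 0.736, 0.342, 0.344 and 0.660 CPM in WT ASO Control. At these few counts no difference was detectable (genotype log2FC -0.0065 ± 0.34). Tpi1, triose phosphate isomerase, had 1775, 1646, 1699 and 1646 CPM in Dnm2SL/+ ASO1, 1304 to 1559.7 (median 1361) CPM in Dnm2SL/+ ASO Control, 2219.6 and 1875 CPM in WT ASO1, and 1700.2, 1739, 1731 and 1917 CPM in WT ASO Control. Mutants given ASO Control lay below all other libraries. Tpi1 was lower by genotype (log2FC -0.35 ± 0.066, edgeR adjusted p = 9.5e-04) and higher with ASO1 (log2FC 0.28 ± 0.066, edgeR adjusted p = 0.010).

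In lower glycolysis, Gapdh, which oxidises glyceraldehyde 3-phosphate, had 34.6, 15.8, 33.6 and 38.0 CPM in Dnm2SL/+ ASO1, 12.0 to 26.2 (median 16.5) CPM in Dnm2SL/+ ASO Control, 23.8 and 35.5 CPM in WT ASO1, and 32.7, 18.5, 26.4 and 31.9 CPM in WT ASO Control. These uncertain levels varied widely within groups, and the genotype log2FC was -0.58 (edgeR adjusted p = 0.099). Pgk1, the first ATP-making enzyme, had 27.9, 24.8, 26.6 and 30.2 CPM in Dnm2SL/+ ASO1, 20.5 to 26.4 (median 22.4) CPM in Dnm2SL/+ ASO Control, 39.0 and 32.8 CPM in WT ASO1, and 25.1, 28.9, 25.9 and 33.7 CPM in WT ASO Control. It overlapped between groups and was lower by genotype (log2FC -0.30 ± 0.097, edgeR adjusted p = 0.026). Pyruvate kinase Pkm had 1840.0, 1832, 1816 and 1871 CPM in Dnm2SL/+ ASO1, 1457 to 1775 (median 1546) CPM in Dnm2SL/+ ASO Control, 2526 and 1909.9 CPM in WT ASO1, and 1934, 1875, 1915 and 2140.0 CPM in WT ASO Control. Each mutant group lay below WT ASO Control, and Pkm was lower by genotype (log2FC -0.30 ± 0.078, edgeR adjusted p = 0.0072), with log2FC 0.21 with ASO1 (edgeR adjusted p = 0.085).

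The muscle phosphoglycerate mutase Pgam2 had 2068, 2150.2, 1910.0 and 2057 CPM in Dnm2SL/+ ASO1, 1494 to 2053 (median 1584) CPM in Dnm2SL/+ ASO Control, 2621 and 2086 CPM in WT ASO1, and 1717, 1931, 1676 and 1966 CPM in WT ASO Control. Mutants given ASO Control overlapped WT ASO Control (log2FC -0.14, edgeR adjusted p = 0.25), and Pgam2 was higher with ASO1 (log2FC 0.31 ± 0.092, edgeR adjusted p = 0.033). Its counterpart Pgam1 had 0.658, 0.396, 0.523 and 0.665 CPM in Dnm2SL/+ ASO1, 0.226 to 0.867 (median 0.676) CPM in Dnm2SL/+ ASO Control, 0.566 and 0.467 CPM in WT ASO1, and 0.320, 0.622, 0.585 and 0.587 CPM in WT ASO Control. So few counts allowed no distinction between groups (genotype log2FC 0.21 ± 0.31). The muscle enolase Eno3 had 7396, 6665, 6899.7 and 6884 CPM in Dnm2SL/+ ASO1, 5459.7 to 6459 (median 5726) CPM in Dnm2SL/+ ASO Control, 9139.9 and 7779.7 CPM in WT ASO1, and 6982, 7378, 7165 and 7819 CPM in WT ASO Control. It was lower by genotype (log2FC -0.33 ± 0.069, edgeR adjusted p = 0.0019) and higher with ASO1 (log2FC 0.25 ± 0.069, edgeR adjusted p = 0.023), without overlap in either comparison. Eno1, the widespread enolase, had 25.5, 26.9, 21.8 and 27.1 CPM in Dnm2SL/+ ASO1, 20.8 to 22.3 (median 21.5) CPM in Dnm2SL/+ ASO Control, 28.2 and 24.8 CPM in WT ASO1, and 22.9, 23.3, 22.4 and 22.8 CPM in WT ASO Control. Its genotype difference was small and not called (log2FC -0.081, edgeR adjusted p = 0.34), and Eno1 was higher with ASO1 (log2FC 0.23 ± 0.061, edgeR adjusted p = 0.019).

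Lactate dehydrogenase closes the pathway. Ldha, the muscle subunit, had 2153, 1951, 2145 and 1959 CPM in Dnm2SL/+ ASO1, 1629.5 to 2245 (median 1852) CPM in Dnm2SL/+ ASO Control, 3259 and 2663 CPM in WT ASO1, and 2265, 2309.6, 2157 and 2357 CPM in WT ASO Control. Mutants given ASO Control overlapped WT ASO Control at a single library, and Ldha was lower by genotype (log2FC -0.27 ± 0.084, edgeR adjusted p = 0.021). Ldhb, the heart subunit, had 82.0, 117, 79.2 and 76.4 CPM in Dnm2SL/+ ASO1, 31.4 to 68.8 (median 36.9) CPM in Dnm2SL/+ ASO Control, 27.4 and 88.4 CPM in WT ASO1, and 57.0, 79.6, 61.2 and 81.7 CPM in WT ASO Control. Its treated mutants lay above all mutants given ASO Control, which were widely spread, and Ldhb was higher with ASO1 (log2FC 1.01 ± 0.28, edgeR adjusted p = 0.023), with a genotype log2FC of -0.67 (edgeR adjusted p = 0.078) that was called lower once the library labelled Dnm2SL/+ ASO Control 6 was left out.

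The balance within an isoform pair does not depend on how libraries are scaled, and 9 log2 ratios of the other isoform to the muscle isoform were compared by exact two-sided permutation tests in 3 comparisons, with p-values adjusted over the 9. By genotype, 6 of 9 shifted toward the other isoform. The Hk1/Hk2 log2 ratio ran from -4.73 to -4.17 in Dnm2SL/+ ASO Control and from -5.84 to -5.19 in WT ASO Control, a 2.14-fold higher ratio in the mutant (exact permutation, adjusted p = 0.014). The Pygb/Pygm ratio differed by 1.03 (exact adjusted p = 0.014) and Pygl/Pygm by 1.18 (exact adjusted p = 0.029). Pfkp/Pfkm differed by 0.79 (exact adjusted p = 0.021), Pfkl/Pfkm by 0.55 (exact adjusted p = 0.029) and Eno1/Eno3 by 0.25 (exact adjusted p = 0.014). Aldoc/Aldoa, Pgam1/Pgam2 and Ldhb/Ldha did not pass, the last with a difference of -0.44 (exact adjusted p = 0.15). Pfkm and Pygm each stand in more than 1 of these ratios, so the 6 are not independent. A ratio shows unequal change of its members and not which of them moved. Of the genes in the 6 ratios, TMM scaling called Hk2, Pfkm, Eno3 and Pygm lower and Hk1 higher. Scaling by total counts called Pygm lower and Hk1 and Pfkp higher.

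With ASO1 in the mutant, 3 ratios passed. Hk1/Hk2 ran from -5.69 to -4.79 in Dnm2SL/+ ASO1 and differed from Dnm2SL/+ ASO Control by -0.70 (exact adjusted p = 0.029), Pygb/Pygm by -0.61 (exact adjusted p = 0.029) and Ldhb/Ldha by 0.93 (exact adjusted p = 0.029). Treated mutants against WT ASO Control gave none of 9, with a smallest exact p of 0.029 and an adjusted p of 0.17 (Ldhb/Ldha, difference 0.49). That p is the smallest that 4 against 4 libraries allow, against 0.0048 in the genotype comparison. A single ratio at that floor cannot pass after adjustment over 9, so none of 9 does not show that the ratios were equal to WT. The number past the threshold changed when single libraries were left out. Fewer libraries also raise the smallest p that the exact test allows. These counts therefore cannot separate the weight of a library from the loss of sample size. By genotype it was 3 without WT ASO Control 3 and 5 when the Dnm2SL/+ ASO Control library labelled 6 was left out, and with ASO1 it was 0 without Dnm2SL/+ ASO Control 2, 3, 4 or 6 or without any 1 of the 4 Dnm2SL/+ ASO1 libraries.

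**Figure D3:**
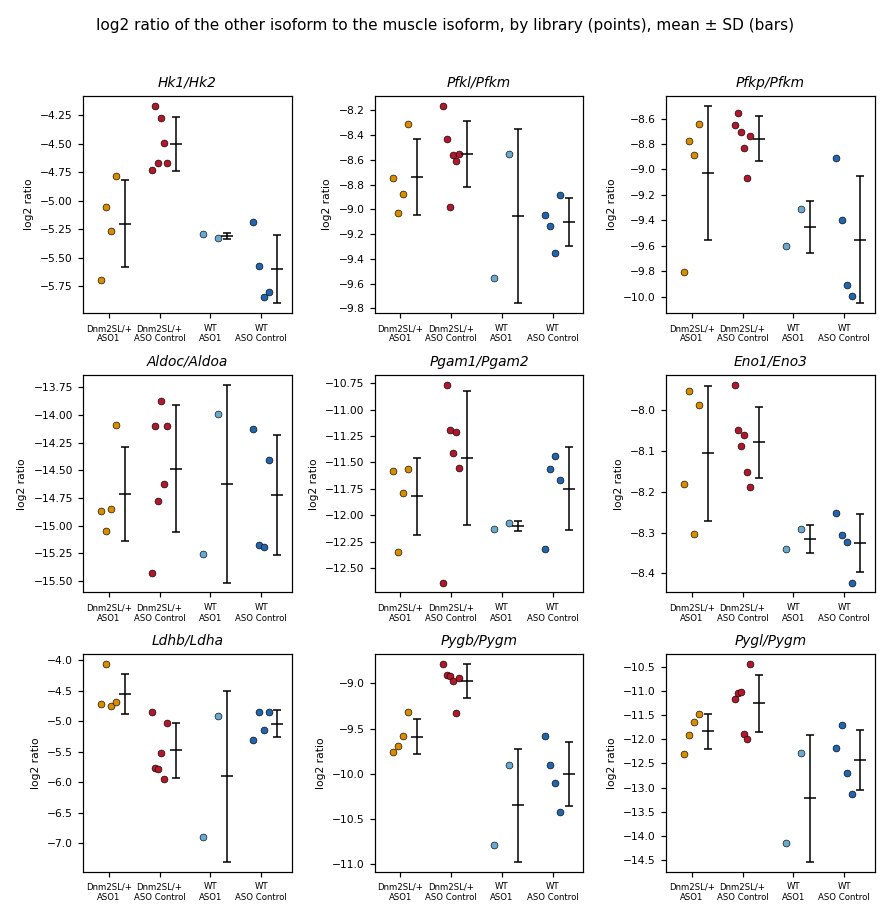
Log2 ratio of the other isoform to the muscle isoform (vertical axis) by library (points) in the 4 groups, with mean ± SD as bars, for 9 isoform pairs. For Hk1/Hk2 and Pygb/Pygm the mutants given ASO Control are highest and lie wholly above WT ASO Control, with the means of treated mutants between, and for Ldhb/Ldha the treated mutants are highest.

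The comparison of Dnm2SL/+ ASO1 with Dnm2SL/+ ASO Control asks what lowering Dnm2 changed in mutant muscle. Members that were called all rose, led by Ldhb (log2FC 1.01), Fbp2 (0.99), Gpd1 (0.76) and Pfkfb1 (0.70). In all, 15 of 37 were higher, against 6.96% of all genes, and 0 were lower, against 8.06%. An unadjusted p under 0.05 in edgeR in either direction was found for 21 members. Of all 15649 genes, 2285 lower and 2229 higher ones had such a p. In 12 members every library of Dnm2SL/+ ASO1 lay above every library of Dnm2SL/+ ASO Control, which held for 5.10% of all genes. The median log2FC was 0.232 over members and 0.00515 over all genes. Among muscle isoforms 9 of 14 were higher, among isoforms of other tissues 2 of 10 (Ldhb and Eno1), and among undivided genes 4 of 13. By function, 6 of 18 genes of the glycolytic steps, 4 of 12 glycogen genes and 5 of 7 shuttle, bypass and transport genes were higher.

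Scaling by total counts moved the median gene by -0.126 in this comparison, with 2872 genes lower and 474 higher where TMM gave 1262 and 1089. It left 7 members higher (Ldhb, Gpd1, Gpd2, Fbp2, Pygm, Phkg1 and Pfkfb1) and 1 lower (Hk1). Without the library labelled Dnm2SL/+ ASO Control 6, 17 members were higher, Pkm and Gys1 in addition to the 15 (7 of 18 genes of the glycolytic steps, 5 of 12 glycogen genes and 5 of 7 of the others; 10 of 14 muscle isoforms, 2 of 10 other isoforms and 5 of 13 undivided genes), and in 14 members every treated mutant lay above every remaining mutant given ASO Control. Leaving out any 1 library gave 771 to 1371 of all genes called higher. The share of all genes without overlap was again not taken for the smaller set, where such counts can only grow. Without Dnm2SL/+ ASO1 1, 8 members were higher.

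**Figure D4:**
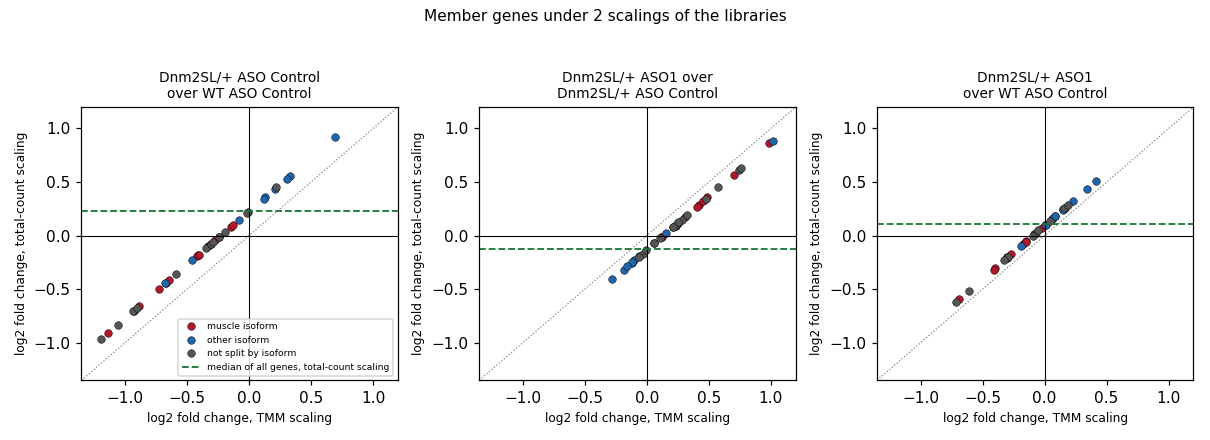
Log2 fold change of each member with TMM scaling (horizontal axis) against scaling by total counts (vertical axis) in 3 comparisons, coloured by isoform class, with the median of all genes under total counts as a dashed line at 0.229, -0.126 and 0.107 from left to right. The points shift together, above the dotted line of equal values in the left and right panels and below it in the middle panel.

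Treated mutants were set against WT ASO Control to ask what still differed. Here 5 members were lower, against 2.86% of all genes, and 0 were higher, against 1.66%. The 5 were Gpd2, Phkb, Gyg, Phka1 and Pygm, so 4 of the 12 glycogen genes, 1 of the 7 shuttle, bypass and transport genes and 0 of the 18 genes of the glycolytic steps were called. The median log2FC was -0.0756 over members and 0.0119 over all genes. In edgeR 12 members had an unadjusted p under 0.05, as did 1826 lower and 1566 higher genes of all 15649. In 10 members every treated mutant library lay below every WT ASO Control library, which held for 6.99% of all genes. The same 5 were called lower on total counts, with Hk1 called higher there and in DESeq2, and the count of lower members was 5 once the Dnm2SL/+ ASO Control library labelled 6 was left out. On total counts, 214 of all genes were called lower and 671 higher. Only 2 members were lower (Gpd2 and Phkb) without WT ASO Control 3, WT ASO Control 4, Dnm2SL/+ ASO1 2 or Dnm2SL/+ ASO1 4. Over all genes, leaving out 1 library gave 106 to 600 called lower and 78 to 375 called higher. Hk1 was called higher without WT ASO Control 1 or Dnm2SL/+ ASO1 1, and Eno1 without Dnm2SL/+ ASO1 3. Pfkm was called lower without Dnm2SL/+ ASO1 3, and Phkg1 without WT ASO Control 1.

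ASO1 in WT muscle rested on 2 treated libraries. edgeR called 0 members and 0% of all genes. An unadjusted p under 0.05 was found for 7 members, and for 721 lower and 884 higher genes of all 15649. DESeq2 and limma-voom likewise called 0 members. In 3 members (Pgam2, Ldha and Eno1) both treated libraries lay above all 4 WT ASO Control libraries, which held for 9.72% of all genes. The median log2FC was 0.0447 over members and -0.0176 over all genes.

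With both genotypes on ASO1, Dnm2SL/+ ASO1 against WT ASO1, 5 members were lower, against 2.49% of all genes, and 0 were higher, against 1.02%. They were Gpd2 (log2FC -0.65 ± 0.13, edgeR adjusted p = 0.021), Phkb (log2FC -0.64 ± 0.13, edgeR adjusted p = 0.021), Ldha (log2FC -0.53 ± 0.11, edgeR adjusted p = 0.023), Aldoa (log2FC -0.44 ± 0.11, edgeR adjusted p = 0.036) and Pygm (log2FC -0.44 ± 0.11, edgeR adjusted p = 0.042). An unadjusted p under 0.05 in edgeR was found for 15 members, and for 1718 lower and 1481 higher genes of all 15649. In 15 members all treated mutants lay below both WT ASO1 libraries, which held for 14.4% of all genes. The median log2FC was -0.221 over members and 0.0247 over all genes. The count of lower members was 0 without WT ASO1 1 or without Dnm2SL/+ ASO1 4, 1 (Gpd2) without Dnm2SL/+ ASO1 2, 3 (Ldha, Gpd2 and Phkb) without Dnm2SL/+ ASO Control 3 and 5 without Dnm2SL/+ ASO Control 6, and Ldhb was called higher without WT ASO1 2. Over all genes, leaving out 1 library gave 0 to 444 called lower and 0 to 211 called higher, so such losses were not particular to the members.

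Whether ASO1 changed a member differently in the genotypes was tested by the interaction. edgeR called 0 members, against 2.82% of all genes, and DESeq2 called 3 higher (Gpd2, Pygm and Slc2a4). Over all genes, leaving out 1 library gave 22 to 464 called lower and 8 to 242 called higher. Other processing alternatives gave 97 to 682 and 18 to 402. In edgeR 12 members had an unadjusted p under 0.05, as did 1572 genes of all 15649 with a negative and 1480 with a positive log2FC. The largest interaction log2FC was that of Ldhb (log2FC 1.29 ± 0.48, edgeR adjusted p = 0.15). Single members were called higher without WT ASO1 1 (Gpd2), WT ASO1 2 (Ldhb) or Dnm2SL/+ ASO Control 6 (Gpd1). An effect of ASO1 called in Dnm2SL/+ and not in WT is therefore not shown to differ between them.

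Single libraries decided several of the calls named above. By genotype, Hk2 was not called without WT ASO Control 3 or 4, Ppp1r3c without WT ASO Control 4 or Dnm2SL/+ ASO Control 2, Ldha without WT ASO Control 2 or 4 or Dnm2SL/+ ASO Control 2 or 4, and Pgk1 without those same 4 libraries or Dnm2SL/+ ASO Control 3. Aldoa lost its genotype call without WT ASO Control 2, 3 or 4 or Dnm2SL/+ ASO Control 1, 2, 3 or 4. Pfkp was called higher without WT ASO Control 1, and Gbe1 without WT ASO Control 4. Ldhb was called lower without WT ASO1 1 or 2 or without the library labelled Dnm2SL/+ ASO Control 6. With ASO1, Pkm was called higher without WT ASO1 1 or 2 or Dnm2SL/+ ASO Control 6, Gys1 without Dnm2SL/+ ASO Control 6, and Gapdh without Dnm2SL/+ ASO Control 1 or Dnm2SL/+ ASO1 2. The calls of Eno3, Pfkfb1 and Slc2a4 were lost without Dnm2SL/+ ASO1 1, that of Eno1 without Dnm2SL/+ ASO1 2 or 4 and that of Ldhb without Dnm2SL/+ ASO1 2 or Dnm2SL/+ ASO Control 2. Hk2 was not called without Dnm2SL/+ ASO1 1 or 3 or Dnm2SL/+ ASO Control 2 or 4. Pgam2 was not called without Dnm2SL/+ ASO1 1, 2 or 4 or Dnm2SL/+ ASO Control 2, 3, 4 or 5, Phka1 without Dnm2SL/+ ASO1 1, 3 or 4 or Dnm2SL/+ ASO Control 2, 3 or 4, and Phkb without Dnm2SL/+ ASO1 1, 3 or 4 or Dnm2SL/+ ASO Control 1, 2 or 4.

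Related genes outside the 37 were read from 7 lists. Of 16 other glycogen genes tested, 6 were lower and 1 higher by genotype, 1 was higher with ASO1 and 3 were lower in treated mutants. The lysosomal glucosidase Gaa ranged over 226 to 291 CPM in Dnm2SL/+ ASO1, 217 to 258 CPM in Dnm2SL/+ ASO Control, 305 to 361 CPM in WT ASO1 and 321 to 403 CPM in WT ASO Control and was lower by genotype (log2FC -0.57 ± 0.083, edgeR adjusted p = 9.3e-05) and in treated mutants (log2FC -0.44 ± 0.092, edgeR adjusted p = 0.016). On total counts this list had 3 lower and 4 higher by genotype.

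Of 12 other glycolytic genes tested, 5 were lower and 4 higher by genotype, 2 lower and 1 higher with ASO1, and 1 lower and 1 higher in treated mutants. Bpgm, which makes 2,3-bisphosphoglycerate, ranged over 86.5 to 92.5 CPM in Dnm2SL/+ ASO1, 58.8 to 70.5 CPM in Dnm2SL/+ ASO Control, 104 to 118 CPM in WT ASO1 and 90.8 to 103 CPM in WT ASO Control and was lower by genotype (log2FC -0.57 ± 0.062, edgeR adjusted p = 8.8e-06). Pgm5, a phosphoglucomutase relative found at adherens junctions, ranged over 16.8 to 23.8 CPM in Dnm2SL/+ ASO1, 24.4 to 35.0 CPM in Dnm2SL/+ ASO Control, 13.9 to 14.8 CPM in WT ASO1 and 12.9 to 16.9 CPM in WT ASO Control and was higher by genotype (log2FC 1.03 ± 0.12, edgeR adjusted p = 1.9e-05). These 2 genes thus stood on opposite sides.

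Pyruvate entry into mitochondria gave 9 lower and 2 higher of 15 by genotype (3 and 3 on total counts), 1 lower and 8 higher with ASO1, and 1 lower in treated mutants. Pcx, pyruvate carboxylase, ranged over 49.8 to 70.9 CPM in Dnm2SL/+ ASO1, 42.3 to 58.9 CPM in Dnm2SL/+ ASO Control, 76.7 to 98.3 CPM in WT ASO1 and 82.6 to 102 CPM in WT ASO Control and was lower by genotype (log2FC -0.95 ± 0.11, edgeR adjusted p = 1.4e-05). Pdpr, the regulatory subunit of pyruvate dehydrogenase phosphatase, ranged over 45.5 to 65.9 CPM in Dnm2SL/+ ASO1, 32.6 to 42.3 CPM in Dnm2SL/+ ASO Control, 42.3 to 57.4 CPM in WT ASO1 and 55.9 to 94.3 CPM in WT ASO Control and was lower by genotype (log2FC -1.02 ± 0.13, edgeR adjusted p = 4.2e-05) and higher with ASO1 (log2FC 0.51 ± 0.13, edgeR adjusted p = 0.019). Among 9 sugar and monocarboxylate transporters, 4 were lower and 2 higher by genotype (3 and 3 on total counts), 2 were higher with ASO1 and 1, Slc2a3, was lower in treated mutants. The list was led by the glucose transporter Slc2a3 (log2FC -1.79 ± 0.19, edgeR adjusted p = 8.0e-06; 2.57 to 4.04 CPM in Dnm2SL/+ ASO1, 1.58 to 3.22 CPM in Dnm2SL/+ ASO Control, 6.86 to 10.1 CPM in WT ASO1 and 6.27 to 8.74 CPM in WT ASO Control) and by Slc16a3, the lactate exporter of fast fibres (log2FC -0.48 ± 0.095, edgeR adjusted p = 0.0011; 428 to 519 CPM in Dnm2SL/+ ASO1, 326 to 463 CPM in Dnm2SL/+ ASO Control, 598 to 674 CPM in WT ASO1 and 489 to 597 CPM in WT ASO Control).

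In the pentose phosphate pathway, 1 of 8 genes was lower and 2 were higher by genotype (0 and 4 on total counts), namely H6pd (log2FC -0.44 ± 0.080, edgeR adjusted p = 6.4e-04; 43.3 to 56.3 CPM in Dnm2SL/+ ASO1, 44.4 to 53.9 CPM in Dnm2SL/+ ASO Control, 55.6 to 62.9 CPM in WT ASO1 and 62.3 to 72.5 CPM in WT ASO Control) on the lower side and Pgd on the higher side (log2FC 0.36 ± 0.071, edgeR adjusted p = 0.0012; 18.5 to 21.2 CPM in Dnm2SL/+ ASO1, 19.8 to 24.7 CPM in Dnm2SL/+ ASO Control, 16.9 to 19.2 CPM in WT ASO1 and 16.6 to 19.1 CPM in WT ASO Control). Pgd was lower with ASO1 and H6pd was lower in treated mutants. In the malate-aspartate shuttle, the other route for cytosolic NADH, 1 of 7 was lower by genotype (0 lower and 3 higher on total counts) and 4 were higher with ASO1. Its carrier Slc25a12 ranged over 631 to 757 CPM in Dnm2SL/+ ASO1, 498 to 564 CPM in Dnm2SL/+ ASO Control, 624.9 to 680.2 CPM in WT ASO1 and 639 to 704 CPM in WT ASO Control and was lower by genotype (log2FC -0.30 ± 0.060, edgeR adjusted p = 0.0013), and Mdh2 ranged over 1247 to 1535 CPM in Dnm2SL/+ ASO1, 1070.3 to 1252 CPM in Dnm2SL/+ ASO Control, 1361 to 1503 CPM in WT ASO1 and 1178 to 1302 CPM in WT ASO Control with a genotype log2FC of -0.12 (edgeR adjusted p = 0.20). Among 24 regulators of muscle glucose use, 8 were lower and 1 higher by genotype (2 and 4 on total counts), 1 was lower and 2 higher with ASO1, and 3 were lower in treated mutants. The AMPK beta subunit Prkab2 ranged over 406 to 549 CPM in Dnm2SL/+ ASO1, 254 to 337 CPM in Dnm2SL/+ ASO Control, 526 to 682 CPM in WT ASO1 and 539 to 767 CPM in WT ASO Control and was lower by genotype (log2FC -1.17 ± 0.11, edgeR adjusted p = 3.5e-06), while the catalytic subunit Prkaa1 ranged over 20.05 to 25.2 CPM in Dnm2SL/+ ASO1, 28.1 to 46.3 CPM in Dnm2SL/+ ASO Control, 16.2 to 18.9 CPM in WT ASO1 and 17.0 to 19.2 CPM in WT ASO Control and was higher (log2FC 1.01 ± 0.13, edgeR adjusted p = 3.4e-05).

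Some markers of fibre type and of other cells were called in the same comparisons. Beside the 9 fast-fibre markers lower by genotype, 1 (Myh1) was higher, and of the 10 fast-fibre markers 6 were higher and 1 lower with ASO1, and 2 were lower in treated mutants. Of 10 slow-fibre markers, 2 were higher and 3 lower with ASO1, and 1 was higher in treated mutants. The 2 higher ones were Myl3 and Myh2, and Myh2 is the myosin of type 2A fibres rather than a slow-fibre gene. On total counts 7 fast-fibre markers were lower and 1 higher by genotype, and 6 slow-fibre markers were higher.

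Of 12 macrophage markers, which summed to 35.1 to 81.4 CPM in Dnm2SL/+ ASO1, 57.4 to 109 CPM in Dnm2SL/+ ASO Control, 23.5 to 53.5 CPM in WT ASO1 and 29.5 to 68.5 CPM in WT ASO Control, 5 were higher by genotype (10 on total counts), 2 lower with ASO1 and 1 (Aif1) higher in treated mutants. Of 8 fibroblast markers, which summed to 696 to 1777 CPM in Dnm2SL/+ ASO1, 1713 to 2288 CPM in Dnm2SL/+ ASO Control, 629 to 877 CPM in WT ASO1 and 715 to 1874 CPM in WT ASO Control, 4 were higher by genotype (6 on total counts) and 2 lower with ASO1. Of 7 endothelial markers, which summed to 504 to 752 CPM in Dnm2SL/+ ASO1, 393 to 497 CPM in Dnm2SL/+ ASO Control, 484 to 532 CPM in WT ASO1 and 512 to 623 CPM in WT ASO Control, 1 was lower by genotype and 3 were higher with ASO1. Of 5 satellite cell markers, which summed to 41.2 to 77.6 CPM in Dnm2SL/+ ASO1, 67.8 to 93.1 CPM in Dnm2SL/+ ASO Control, 93.3 to 106 CPM in WT ASO1 and 65.9 to 93.4 CPM in WT ASO Control, 3 were lower by genotype (3 lower and 1 higher on total counts), 1 lower with ASO1 and 2 lower in treated mutants. The macrophage and fibroblast sums of Dnm2SL/+ ASO Control overlapped those of WT ASO Control.

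Of 6 pericyte and smooth muscle markers, which summed to 619 to 868 CPM in Dnm2SL/+ ASO1, 552 to 670.1 CPM in Dnm2SL/+ ASO Control, 599 to 858 CPM in WT ASO1 and 674 to 843 CPM in WT ASO Control, 3 were lower and 1 higher by genotype (1 and 1 on total counts) and 2 were higher with ASO1. Tendon markers summed to 48.7 to 324 CPM in Dnm2SL/+ ASO1, 209 to 517 CPM in Dnm2SL/+ ASO Control, 182 to 213 CPM in WT ASO1 and 99.9 to 502 CPM in WT ASO Control, with 1 of 5 higher by genotype (2 on total counts) and 2 of 5 lower with ASO1. Schwann cell (59.7 to 202 CPM in Dnm2SL/+ ASO1, 80.7 to 238 CPM in Dnm2SL/+ ASO Control, 45.7 to 98.9 CPM in WT ASO1 and 53.0 to 142 CPM in WT ASO Control), adipocyte (6.75 to 41.6 CPM in Dnm2SL/+ ASO1, 5.67 to 56.1 CPM in Dnm2SL/+ ASO Control, 5.45 to 6.07 CPM in WT ASO1 and 4.84 to 47.6 CPM in WT ASO Control) and erythroid (28.2 to 105 CPM in Dnm2SL/+ ASO1, 12.7 to 120.3 CPM in Dnm2SL/+ ASO Control, 23.7 to 33.9 CPM in WT ASO1 and 45.8 to 71.5 CPM in WT ASO Control) lists had 0 called in edgeR in these 3 comparisons, and none of all the markers was at 0 in a whole group. With ASO1 on total counts, the list of other glycogen genes had 2 lower and 0 higher, the pentose phosphate list 3 lower, the malate-aspartate list 1 higher, and the fast-fibre list 1 lower and 3 higher. The part of cell make-up in the changes of the 37 genes was not tested.

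The counts of these lists were also taken with the Dnm2SL/+ ASO Control library labelled 6 left out. By genotype there were then 7 lower and 2 higher among the other glycogen genes, 4 lower and 3 higher of 11 tested among the other glycolytic genes, 4 lower and 1 higher among transporters, and 10 lower and 2 higher among regulators of glucose use. With ASO1 the pyruvate list had 1 lower and 10 higher, the other glycogen genes 1 lower and 1 higher, the other glycolytic genes 2 lower and 2 higher, the regulators 2 lower and 4 higher and the malate-aspartate list 3 higher, and Pgd of the pentose phosphate list lost its call. Among marker lists, 1 slow-fibre marker was lower and 5 were higher by genotype, 4 macrophage markers were higher, 2 pericyte markers were lower and 1 higher, and 1 adipocyte marker was lower. With ASO1, 3 slow-fibre markers were lower and 3 higher, 1 macrophage marker and 1 tendon marker were lower, and 1 pericyte marker was lower and 1 higher. The other list counts by genotype and with ASO1 had the same size with and without it.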

How the data were processed

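Polyadenylated RNA of 16 tibialis anterior samples was sequenced from stranded mRNA libraries. The deposited values are raw counts per gene, not normalized by the authors. The submitters' processing notes name cutadapt 1.10, Bowtie2 2.2.8, STAR 2.5.3a, HTSeq 0.6.1p1 and the builds GRCm38 and mm10. The annotation release, the strand setting of the counting and the handling of reads that map several times were not given in the sources used here. The submitters later corrected the label of 1 library, and samples were grouped by the labels as they now stand.

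Groups came from the sample labels. Symbols and positions came from GENCODE on GRCm38, with which all identifiers of the table were paired. Counts were filtered with filterByExpr, which kept 15649 of 30037 genes (52.1%), scaled by TMM and fitted with 4 group means in edgeR 4.0.16 (limma 3.58.1, R 4.3.3) over all 16 libraries with 12 residual degrees of freedom. A call needed a Benjamini-Hochberg adjusted p under 0.05. Isoform ratios were log2 ratios of raw counts within a library, with a prior count of 0.5 added to each, compared by exact permutation over libraries and adjusted over 9 ratios. The edgeR step was tested on simulated data. Alternatives were other scalings and filters, DESeq2 1.42.0, limma-voom, a replicate block, a fit of only the groups compared, a prior count of 2 for the ratios, an absolute log2FC over 1 and leaving out each library.

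No 2 libraries agreed within sampling noise: over 120 pairs the chi-square per degree of freedom was 10.3 to 198. Members, gene lists and marker lists were chosen with earlier results of these data known. Every member is accounted for, with values by library for all isoforms of 7 enzyme families and for 3 members of each other role with the smallest genotype p, and of each related list the 2 genes with the smallest genotype p are named, except that 1 gene of the glycogen list is not reported here. RefSeq promoters matched 35 members. Counting error is small at this depth for most members, but not for those under 1 CPM. The study's text states 3 to 6 replicates per group, and 2 WT ASO1 libraries were analysed here.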

Additional observations from a re-analysis of the deposited data

Results flagged for a closer look

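Values by library were examined for every member in each group of 4 or 6, 111 sets in all, for a highest or lowest library far from its group by Dixon's criterion, and 4 sets held one, where chance gives about 1 in 20. Pfkp stood at 5.98 CPM in Dnm2SL/+ ASO1 1, with the next library of the group at 11.5 CPM. Pgam2 stood at 2053 CPM in the library labelled Dnm2SL/+ ASO Control 6, whose Dnm2 level lay within the range of treated mutants, with the next library at 1654 CPM. Ldhb stood at 116.7 CPM in Dnm2SL/+ ASO1 2, with the next library at 82.0 CPM. Pgam1 stood at 0.320 CPM in WT ASO Control 1, with the next library at 0.585 CPM.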

How the results depend on the processing

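By genotype, with ASO1 in the mutant, and in treated mutants against WT ASO Control, 917, 909 and 938 of 960 values over members and alternatives kept their side of the threshold, among them 16, 29 and 26 uncalled values that changed sign; 31, 40 and 14 lost a call and 10, 11 and 8 gained one. With scaling by total counts, 10 members were lower and 4 higher by genotype, 1 lower and 7 higher with ASO1, 1 higher in treated mutants, and 2 lower with both genotypes on ASO1. By genotype the sign turned for Gpi1 (log2FC 0.034), which lost its call, and for Gpd1l (0.21), which gained one. An absolute log2FC over 1 left 3 lower and 0 higher by genotype, 1 higher with ASO1, and 0 lower in treated mutants and with both genotypes on ASO1. A fit of only the groups compared gave 3 lower in treated mutants and 0 with both genotypes on ASO1. DESeq2 gave 1 higher in treated mutants, 10 lower with both genotypes on ASO1 and 3 higher for the interaction, and limma-voom gave 3 lower with both genotypes on ASO1. Leaving out 1 library gave 16 to 22 lower and 1 to 2 higher by genotype, 8 to 17 higher with ASO1, 2 to 6 lower and 0 to 1 higher in treated mutants, 0 to 7 lower and 0 to 1 higher with both genotypes on ASO1, 0 to 1 higher for the interaction, and 3 to 6 isoform ratios by genotype and 0 to 3 with ASO1. The cause of these changes was not tested, except that a fold threshold can only remove calls. Same-numbered libraries correlated at -0.12 to 0.247 in their deviations from group means, so they share only a number; with the replicate block, 2 members were lower with both genotypes on ASO1. Over all genes, alternatives other than leaving out a library gave these ranges of counts called lower and higher. They were 314 to 2901 and 888 to 5662 by genotype, and 397 to 2872 and 96 to 1455 with ASO1. In treated mutants they were 33 to 718 and 85 to 671. With both genotypes on ASO1 they were 2 to 708 and 2 to 449, and for the interaction 97 to 682 and 18 to 402. The member values for treated mutants and the counts by list, function, isoform and overlap without Dnm2SL/+ ASO Control 6 were added after the data had been seen. Depth limits the isoforms under 1 CPM, and the 2 WT ASO1 libraries limit both comparisons that use them.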
